A study of Brassica napus with 8 samples.

Results

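A set of 47 array probes gave lower signal in *M. brassicae*-challenged seedlings of *B. napus* than in control seedlings, in wild-type as well as in *MINELESS* plants. The probes were chosen by their measured values. A probe belonged to the set when its mean log2 ratio of challenged over control was -0.5 or lower in wild-type and -0.4 or lower in *MINELESS*, and at least 3 arrays out of 4 had a value in both genotypes. Of the 34992 probes on the array, 8409 had a value on any of the 8 arrays, 1747 met the requirement on coverage, and 47 of those (2.69%) met both limits. The levels of the set in the 2 genotypes are therefore a description and carry no test.

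The wild-type was *B. napus* cv. Westar, and *MINELESS* is a transgenic *B. napus* line in which the myrosin cells were ablated during seed development, by a ribonuclease (barnase) under a myrosinase promoter. In both genotypes, seedlings of 6 to 7 days were exposed for 24 h to 10-day-old larvae of *M. brassicae*, the cabbage moth, in closed cages. Control seedlings of the same genotype were caged without larvae. The larvae had been reared on the genotype on which they were later tested, so rearing diet and genotype cannot be told apart. Each biological replica pooled the above-ground tissue of 4 control pots or 6 challenged pots, with 4 seedlings in a pot, and each array compared 1 challenged pool with 1 control pool.

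Brassicaceae keep glucosinolates and the enzyme myrosinase apart, with myrosinase stored in the myrosin cells, and tissue damage by chewing insects brings them together and releases toxic products such as isothiocyanates and nitriles. Feeding also changes transcription. Genes of defence and of jasmonic acid signalling are known to be induced by herbivores in *Arabidopsis*, and genes of photosynthesis and growth are among those often reported to decline. Which *Arabidopsis* genes the 47 probes represent is stated in none of the sources used here, so the set is described by its measurements, and none of these classes is assigned to any probe. The tissue could not be checked against marker genes for the same reason. In pooled tissue, fewer cells of a type and less RNA per cell cannot be told apart.

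The direction of the ratios is likely challenged over control, because the series compared challenged with non-infested seedlings in this order. Arrays of opposite dye orientation correlated positively (r from 0.56 to 0.84 over 16 pairs, across probes), so all ratios had been brought to a single orientation before deposit. If the sign were the reverse, every probe described here as lower would be higher. Challenged RNA carried the dye Cy5 in replicas 1 and 2 and Cy3 in replicas 3 and 4 of both genotypes. For *MINELESS* replicas 3 and 4, the treatment entry contradicts the channel names, and the dye orientation used here follows the channel names.

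The set was smaller than its counterpart on the other side. Among the 1747 probes, 161 (9.22%) had a mean of 0.5 or higher in wild-type and 0.4 or higher in *MINELESS*. The share of probes past the limit in both genotypes was also smaller on the lower side. Of the 128 probes at -0.5 or lower in wild-type, 47 (36.7%) were at -0.4 or lower in *MINELESS*, and the same 47 made up 45.2% of the 104 probes that reached the *MINELESS* limit. On the other side, the 161 probes were 75.9% of the 212 probes at 0.5 or higher in wild-type and 77.8% of the 207 at 0.4 or higher in *MINELESS*. These are counts past fixed limits, and the difference between the 2 sides was not tested. Shares past a limit depend on how far probes lie from it. Array medians were 0.80 to 1.38 in the 161 probes and -0.48 to -1.01 in the set, so the shares do not measure agreement between the genotypes alone.

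The declines were moderate in size. Wild-type means ran from -1.80 to -0.50 with a median of -0.76, and 8 of the 47 were below -1. *MINELESS* means ran from -1.44 to -0.41 with a median of -0.56, and 3 were below -1. Only Narc8_27519 was below -1 in both genotypes. Of the 358 values that the set had on the 8 arrays, 355 were negative, and 44 probes were negative on every array that measured them.

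Narc8_27519 was the lowest probe of the set. Its log2 ratios were -1.52, -1.91, -2.13 and -1.63 on wild-type replicas 1 to 4 and -1.13, -1.46, -1.37 and -1.79 on *MINELESS* replicas 1 to 4. The means of -1.80 ± 0.28 and -1.44 ± 0.27 (SD, n = 4 each) correspond to levels 3.48-fold and 2.70-fold below the control. The genotypes overlapped, since the lowest *MINELESS* array lay below 2 of the wild-type arrays. No other probe of the set had all 8 values at -1 or lower, and the next lowest by the mean of both genotypes, Narc8_11986, averaged -1.15 against -1.62 for Narc8_27519.

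Narc8_11986 and Narc8_17818 had a wider spread between wild-type arrays than Narc8_27519. Narc8_11986 gave -0.54, -1.88, -1.33 and -1.55 in wild-type and -0.80, -1.66, -0.92 and -0.50 in *MINELESS*, with means of -1.33 ± 0.57 and -0.97 ± 0.49. Narc8_17818 gave -0.39, -2.02, -1.45 and -1.20 in wild-type and -0.69, -1.30, -1.01 and -0.64 in *MINELESS*, with means of -1.27 ± 0.68 and -0.91 ± 0.31. In both probes replica 2 was the lowest array of each genotype, wild-type replica 1 was the highest wild-type array, and *MINELESS* replica 4 was the highest *MINELESS* array.

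Narc8_24822 and Narc8_27235 completed the 5 lowest probes with values on all 8 arrays. Narc8_24822 gave -1.39, -1.66, -1.43 and -0.83 in wild-type (-1.33 ± 0.35) and -0.45, -0.87, -1.18 and -1.18 in *MINELESS* (-0.92 ± 0.34). Narc8_27235 gave -0.99, -1.47, -1.64 and -0.88 in wild-type (-1.24 ± 0.36) and -0.90, -0.96, -0.81 and -0.85 in *MINELESS* (-0.88 ± 0.07). Wild-type and *MINELESS* values overlapped in both. The *MINELESS* values of Narc8_27235 lay within 0.16 of one another, whereas its wild-type values spanned 0.75.

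A further 3 of the 10 lowest probes with 8 values had the lower mean in wild-type. Narc8_00991 gave -1.54, -1.02, -1.06 and -0.81 in wild-type (-1.11 ± 0.31) and -0.76, -0.70, -0.59 and -0.10 in *MINELESS* (-0.54 ± 0.30). Narc8_23742 gave -1.04, -1.08, -0.54 and -2.03 in wild-type (-1.17 ± 0.62) and 0.16, -0.75, -0.64 and -0.42 in *MINELESS* (-0.41 ± 0.40). Narc8_12709 gave -0.80, -1.04, -1.03 and -1.04 in wild-type (-0.97 ± 0.12) and -0.49, -0.68, -0.54 and -0.71 in *MINELESS* (-0.61 ± 0.11). All 4 wild-type arrays lay below all 4 *MINELESS* arrays for Narc8_00991 and Narc8_12709, and the arrays overlapped for Narc8_23742, which reached its *MINELESS* limit by 0.01.

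The remaining pair of the 10 lowest probes had the lower mean in *MINELESS*. Narc8_00801 gave -0.46, -0.73, -1.11 and -0.22 in wild-type (-0.63 ± 0.38) and -1.01, -1.43, -1.11 and -0.30 in *MINELESS* (-0.96 ± 0.48). Narc8_24079 gave -0.63, -0.92, -0.89 and -0.05 in wild-type (-0.62 ± 0.41) and -1.28, -0.86, -0.74 and -0.63 in *MINELESS* (-0.88 ± 0.28). The genotypes overlapped in both, and replica 4 was the highest array of each genotype in both probes.

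In 3 probes 1 of the values was above 0, and the highest single values were those of Narc8_13001 and Narc8_04306. Narc8_13001 gave -0.35, -0.63 and -1.03 on wild-type replicas 1 to 3, had no value on replica 4, and gave -0.27, -0.85, 0.26 and -1.05 in *MINELESS*. Narc8_04306 gave 0.19, -0.77, -0.41 and -1.11 in wild-type and -0.34, -0.58, -0.23 and -0.64 in *MINELESS*. The third was Narc8_23742 on *MINELESS* replica 1.

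Coverage was uneven. Values on all 8 arrays were present for 31 of the 47 probes (66.0%), against 1056 of the 1747 (60.4%). Of the others, 14 lacked 1 value and 2 lacked 2. The empty cells lay on *MINELESS* replica 3 for 8 probes, on wild-type replica 4 for 5, on *MINELESS* replica 2 for 3 and on *MINELESS* replica 4 for 2. *MINELESS* replicas 2 and 3 held 1781 and 1662 values in all, against 4551 to 7119 on the other 6 arrays. With at least 2 arrays of each genotype in place of 3, 88 of 3829 probes (2.30%) passed both limits, and 40 of the 41 added probes were measured in *MINELESS* on replicas 1 and 4 only.

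The limits cut through a continuous range of values. Just inside the wild-type limit lay Narc8_05945 at -0.503, Narc8_07474 at -0.504, Narc8_19470 at -0.517 and Narc8_04306 at -0.524. Just outside it, with *MINELESS* means that passed, lay Narc8_19257 at -0.491, Narc8_16752 at -0.477, Narc8_16652 at -0.457 and Narc8_11926 at -0.433. Narc8_19257 had a *MINELESS* mean of -0.93, lower than that of 42 of the 47 probes of the set.

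At the *MINELESS* limit, Narc8_07783 at -0.408, Narc8_24810 at -0.410, Narc8_10682 at -0.412 and Narc8_23742 at -0.413 lay just inside. Narc8_13615 at -0.395, Narc8_29186 at -0.393, Narc8_30489 at -0.385 and Narc8_27153 at -0.363 lay just outside, and the wild-type mean of Narc8_13615 was -1.02. Probes on both sides of either limit differed by less than the SD between arrays, which had a median over the set of 0.36 in wild-type and 0.28 in *MINELESS*.

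The second comparison set *MINELESS* against wild-type within the set. The wild-type mean was the lower one in 37 of the 47 probes and the *MINELESS* mean in 10. The difference *MINELESS* minus wild-type had a median of 0.19 on the log2 scale over the set and of -0.004 over the 1747 probes. The median ratio of the *MINELESS* mean to the wild-type mean was 0.73 in the set and 0.75 in the 161 probes that were higher in both genotypes. The limits that chose the set were themselves unequal: with -0.4 in both genotypes, 40 of 59 probes were lower in wild-type and the median difference was 0.08. Wild-type replica 4 had the widest spread of log2 ratios, an SD of 0.81 against 0.47 to 0.61 on the other arrays. The wild-type mean was the lower one in 31 of 47 after the arrays were scaled to the same spread, and in 32 of 47 without wild-type replica 4. These are recounts of the same probes, chosen by these means, and have no matching background. They cannot separate a difference between genotypes from the effect of the unequal limits.

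No probe of the set passed the test of the difference between genotypes (limma, Benjamini-Hochberg adjusted *P* under 0.05 and a difference beyond 0.4), where 18 of all 1747 probes (1.03%) did. At an unadjusted *P* under 0.05, 4 of the 47 (8.51%) passed, against 10.9% of all probes. Because the rule used the means of both genotypes, these counts are given beside the background and nothing is read from them. Adjusted *P* values in limma's test ran from 0.199 to 0.998, and the SE of a difference had a median of 0.21, so the 95% interval spanned 0 for 43 of the 47 probes. Such an interval does not show that the genotypes responded alike.

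The differences in favour of a lower wild-type value were largest for Narc8_23742 and Narc8_00991. Narc8_23742 differed by 0.76 ± 0.28 (SE; 95% interval 0.16 to 1.36; limma adjusted *P* = 0.273) and Narc8_00991 by 0.57 ± 0.19 (0.16 to 0.98; limma adjusted *P* = 0.199). Neither passed after adjustment over the 1747 probes. Without wild-type replica 3, the difference of Narc8_23742 was 1.06 with an adjusted *P* of 0.0361 in limma, the only call that leaving out an array gave within the set. In that fit 43 of all 1747 probes were called, against 18 with every array, so nothing is read from this call.

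In the opposite direction, the largest differences were those of Narc8_14252 and Narc8_10158, neither of which was measured on all arrays. Narc8_14252 gave -0.70, -0.07 and -0.86 on wild-type replicas 1 to 3 and -1.56, -0.48 and -1.19 on *MINELESS* replicas 1, 3 and 4. Narc8_10158 gave -0.58, -0.52, -0.77 and -1.39 in wild-type and -1.10, -1.38 and -1.46 on *MINELESS* replicas 1, 2 and 4. The wild-type and *MINELESS* arrays overlapped in both probes. The fitted differences were -0.57 for each, with SEs of 0.32 and 0.21 and limma adjusted *P* values of 0.573 and 0.296. The fit used the arrays that were present and imputed none. Without *MINELESS* replica 1, the fitted difference of Narc8_14252 was 0.03. The *MINELESS* arrays left, at -0.48 and -1.19, both had challenged RNA in Cy3. The fitted *MINELESS* value of -0.59 therefore rests on the dye coefficient and is not their mean.

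Arrays of the genotypes did not overlap for 3 of the 47 probes (6.38%), against 8.53% of all 1747. Narc8_00991 and Narc8_12709 were lower in wild-type, the direction in which 4.46% of all probes separated. Narc8_07474 was lower in *MINELESS*, with -0.48, -0.48 and -0.55 on wild-type replicas 1 to 3 and -0.61, -0.69, -0.83 and -0.81 on *MINELESS* replicas 1 to 4.

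The level of the whole set differed from array to array. The rule chose the probes by means over these same arrays, and an array with a wide spread can carry a probe past a limit. The order of the arrays is therefore a description and supports nothing further. The median over the set was -0.51, -0.70, -0.84 and -1.01 on wild-type replicas 1 to 4. In *MINELESS* it was -0.48, -0.69, -0.64 and -0.67. Wild-type replica 1 was thus the shallowest and replica 4 the deepest wild-type array. Among the 42 probes with all 4 wild-type values, replica 4 was the lowest array for 21 (50.0%) and replica 1 the highest for 24 (57.1%), against 32.4% and 23.7% of all probes so measured. In the probes past the wild-type limit only, these shares were 77.0% and 45.9%, and past the *MINELESS* limit only 30.0% and 32.0%. The 161 probes that were higher in both genotypes were lowest on wild-type replica 1 in 47.7% and highest on replica 4 in 47.7%. The order was therefore not particular to the set.

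Wild-type replica 4 was also the array with the widest spread over all probes. After the arrays were scaled to the same spread, the set's medians in wild-type were -0.61, -0.71, -0.85 and -0.69, and replica 3 was then the deepest. In *MINELESS* they were -0.60, -0.62, -0.67 and -0.70. The 161 probes that were higher in both genotypes had medians of 1.06, 1.36, 1.17 and 1.38 in wild-type and of 0.80, 0.98, 0.87 and 0.99 in *MINELESS* as deposited. Both groups were nearest to 0 on replica 1 of each genotype as deposited. After scaling, the medians of the 161 probes were 1.26, 1.37, 1.18 and 0.93 in wild-type and 0.99, 0.89, 0.91 and 1.04 in *MINELESS*, and they were then nearest to 0 on wild-type replica 4 and *MINELESS* replica 2. The set stayed nearest to 0 on replica 1 of each genotype, and as deposited the array medians over all values lay between -0.02 and 0.02.

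The array medians of the set were averaged over the Cy3 arrays and over the Cy5 arrays. The Cy3 average minus the Cy5 average was -0.32 in wild-type, where both Cy3 arrays lay below both Cy5 arrays. It was -0.07 in *MINELESS*, where Cy5 replica 2 was the lowest array. The probe-specific dye coefficient (the ratio with challenged RNA in Cy5 minus that in Cy3) was positive for 35 of the 47 probes (74.5%), against 51.5% of all 1747. Its median was 0.16, with a range from -0.37 to 0.63, and the median over all probes was 0.009. It was 0.24 in the 81 probes that were lower in wild-type only and -0.09 in the 161 that were higher in both genotypes. After scaling, 28 of the 47 were positive with a median of 0.05. Replicas 1 and 2 had Cy5 and replicas 3 and 4 Cy3 in both genotypes, so a dye effect and a difference between these replicas cannot be told apart. The rule used the values of these same arrays. The contrasts of the set with all probes, here and for single probes below, are therefore a description and support nothing further.

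For single probes, the dye coefficient passed an unadjusted *P* under 0.05 in limma for 4 of 47 (8.51%), against 2.06% of all probes, and no probe of the set passed after Benjamini-Hochberg adjustment (lowest adjusted *P* 0.992). The 4 were Narc8_24810 at 0.63, Narc8_24609 at 0.51, Narc8_10682 at 0.48 and Narc8_06526 at 0.43. Within each dye orientation, the mean of every one of the 47 probes was below 0 in both genotypes. The rule set limits on the means over these same arrays. This count and those that follow are therefore a description and support nothing further. On the Cy5 arrays 33 were at or below the wild-type limit and 35 at or below the *MINELESS* limit, and on the Cy3 arrays 46 and 39 were. Both limits were met in both orientations by 19 probes.

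The spread between arrays was wider in the set than over all probes, a difference that was not tested. The SD over the arrays of a genotype had a median of 0.36 in wild-type and 0.28 in *MINELESS*, against 0.26 and 0.25 over all 1747 probes. For the 161 probes that were higher in both genotypes it was 0.33 and 0.32. It was 0.40 and 0.26 for probes lower in wild-type only, and 0.35 and 0.29 for those lower in *MINELESS* only. The wider spread was therefore not particular to the set. Without wild-type replica 4, the wild-type median SD of the set was 0.27. The SD over all probes was not computed without that array, so 0.27 has no matching background.

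The order of the arrays differed among the probes of the set. In the 31 probes with all 8 values, deviations from the genotype means were compared pair by pair over the 8 arrays, a measure chosen after the data had been seen. The 465 correlations had a median of 0.10, and 17 (3.66%) were above 0.8. Over all 1056 complete probes the median was 0.003, with 2.83% above 0.8, and in the 52 complete probes that were lower in wild-type only it was 0.48, with 17.6% above 0.8. The pairs share the same arrays and the correlations are a description.

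The 5 most alike pairs were Narc8_24609 with Narc8_24810 (r = 0.97), Narc8_10383 with Narc8_23742 (0.97), Narc8_00991 with Narc8_09221 (0.91), Narc8_11986 with Narc8_17818 (0.91) and Narc8_26603 with Narc8_27235 (0.90). Narc8_24609 gave -0.38, -0.56, -0.67 and -1.35 in wild-type and -0.10, -0.29, -0.39 and -0.96 in *MINELESS*. Narc8_24810 gave -0.07, -0.55, -0.68 and -1.37 in wild-type and -0.14, -0.13, -0.37 and -1.003 in *MINELESS*. Both were lowest on replica 4 of each genotype.

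Narc8_10383 gave -0.53, -0.48, -0.06 and -1.12 in wild-type and -0.13, -0.54, -0.64 and -0.59 in *MINELESS*. As in Narc8_23742, wild-type replica 4 was the lowest and replica 3 the highest wild-type array, and *MINELESS* replica 1 was the highest *MINELESS* array. Narc8_09221, the partner of Narc8_00991, gave -1.13, -0.55, -0.69 and -0.54 in wild-type and -0.69, -0.93, -0.51 and -0.24 in *MINELESS*. Here replica 1 was the lowest wild-type array and replica 4 the highest array of both genotypes, whereas Narc8_24609 and Narc8_24810 were highest in wild-type on replica 1 and lowest on replica 4 of both genotypes.

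Narc8_26603, the partner of Narc8_27235, gave -0.43, -0.77, -0.96 and -0.20 in wild-type and -0.53, -0.70, -0.79 and -0.59 in *MINELESS*. Both had their lowest wild-type value on replica 3 and their highest on replica 4. The lowest correlation in the set was that of Narc8_00991 with Narc8_24810 (r = -0.95), followed by Narc8_10383 with Narc8_24079 (-0.92). Both probes of each of these pairs were lower in challenged seedlings of both genotypes on average, while the arrays on which they were lowest differed.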

How the data were processed

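The authors deposited log2 ratios from 8 dual-colour arrays, printed with *Arabidopsis* oligonucleotides and hybridized with *B. napus* cDNA. They worked in R 2.10.1 with limma, normalized by print tip-loess with no background subtraction, averaged replicated spots and removed genes with strong dye bias, but neither that threshold nor the reason for empty cells is stated in the sources used here. The scans themselves were not analysed here. The number of arrays limits the precision.

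No further normalization was applied. The membership rule was run on the deposited ratios. A linear model was fitted to the 1747 probes with values on at least 3 arrays of each genotype (limma 3.58.1, R 4.3.3), with a coefficient per genotype, a probe-specific dye effect, empirical Bayes moderation (prior degrees of freedom 9.56) and Benjamini-Hochberg adjustment over all of them. The code of the fit was tested on simulated data, with independent noise of equal spread on every array. The simulated differences were larger than any fitted to the set with all arrays, so that test does not measure the power to call differences of the set's size. Descriptive values were computed in Python with pandas. The tables at hand do not link probes to genes, so the planned lists of photosynthesis, glucosinolate, hormone, cell wall, ribosome and cell type marker genes were not used, and no sequence is printed.

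The members and lists were chosen with earlier results of these data known. Probes named by rule were the 10 lowest with 8 values, the 4 nearest to each side of each limit, the 2 largest differences in each direction and the 2 highest single values. Pairs named for their correlation, and probes named for the dye coefficient or for arrays that do not overlap, were chosen after their values were seen.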

Additional observations from a re-analysis of the deposited data

Results flagged for a closer look

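In Narc8_12709, wild-type replica 1 stood apart from the other 3 wild-type arrays. Its log2 ratio was -0.795, against -1.037 to -1.026 on the others, and its gap was 0.95 of the whole range, above the 95% critical value of Dixon's ratio for 4 values. The wild-type mean was -0.97 with it and -1.03 without it. It was 1 of 78 groups of 4 arrays tested in this way, and chance flags about 1 in 20 groups.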

How the results depend on the processing

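The number of probes in the set was 31 with values on all 8 arrays, 88 with at least 2 arrays of each genotype, 31 at -0.5 in both genotypes and 1 at -1 in both. It was 46 by medians, 59 at -0.4 in both, 45 after centring and 44 after scaling (41 shared). With arrays left out in turn it ran from 40 to 90. Omitting *MINELESS* replica 2 gave 85 and omitting *MINELESS* replica 3 gave 90, where 2 *MINELESS* arrays sufficed, and 21 probes stayed through all 8 omissions. The count called for the genotype difference was 0 under all other alternatives, including the replicate block (0 called), and 0 to 1 with arrays left out, the 1 being Narc8_23742 without wild-type replica 3. Over all probes, the replicate block called 49 of 1738. With arrays left out, 0 to 43 of 1747 were called, the 43 without wild-type replica 3. The number with an unadjusted *P* under 0.05 for the dye coefficient ran from 1 to 7 with arrays left out, with 1 when replica 1 of either genotype was omitted, 7 when wild-type replica 3 was omitted and 2 when *MINELESS* replica 4 was omitted. The average of the wild-type array medians on Cy3 arrays minus that on Cy5 arrays, -0.32 as deposited, was -0.11 after scaling. Of 202 repeats of the differences of 12 probes, the 10 lowest and the most different, 1 reversed, Narc8_14252 at 0.0295 without *MINELESS* replica 1, and with arrays left out that difference ran from -1.18 to 0.0295. Both extremes rest on the dye term, since the arrays left in 1 genotype shared a dye orientation. Over all 47 probes, the difference changed sign under at least 1 alternative in 17. All 448 repeats of named genotype means moved by less than 1 SD between arrays. Leaving out 1 array or taking the median cannot move a mean by more than that, so the count does not measure stability. Same-numbered replicas correlated at 0.25, 0.04, -0.11 and 0.03, so the numbers were not shown to pair the samples, although same-numbered replicas had the same dye orientation. The median correlation between probes was 0.01 after scaling, and the 5 most alike pairs were at 0.81 or higher. Those pairs had been picked as the highest on the same arrays, so this value does not measure stability. The cause of these shifts was not tested, beyond the coverage rule just given.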
